A study of Mus musculus with 4 samples.

Results

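The genes described here encode 10 cofactors through which the transcription factor MYC acts on chromatin: Trrap, Ep400, Kat5, Kat2a, Ruvbl1, Ruvbl2, Actl6a, Wdr5, Hcfc1 and Zbtb17. They were chosen by name for the known roles of their proteins, and all 10 are among the 24411 genes listed in each library. ICR mouse embryos, made by in vitro fertilisation and pooled at the late two-cell stage, were cultured with the solvent DMSO (2 libraries) or with 6 µM of the MYC inhibitor 10074-G5 (2 libraries, called MYC-inhibited), and collected at 36 h post insemination (hpi). Each library was made from 10 pooled embryos, and the labels start the treatment at 3 hpi whereas the design text starts it at 6 hpi. 10074-G5 is a small molecule that binds MYC and hinders its pairing with MAX. The group is therefore embryos under a chemical inhibitor of the protein and not embryos that lack the gene. The comparison asks how the RNA of the cofactor genes differed when MYC function was inhibited.

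MYC binds DNA as a dimer with MAX, mostly at the E-box CACGTG, and its conserved regions (MYC boxes) recruit other proteins to the chromatin. TRRAP is the scaffold that brings in the acetyltransferases TIP60 (Kat5, in a complex with EP400) and GCN5 (Kat2a, in SAGA), while WDR5 and HCFC1 bind MYC and also belong to histone H3K4 methyltransferase complexes. ZBTB17 (MIZ1) is the zinc finger partner with which MYC represses genes. In the late two-cell embryo the major wave of zygotic genome activation (ZGA) takes place while transcripts stored in the oocyte are cleared, so the RNA of each gene can be a mixture of stored and new molecules.

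Promoters of the members were searched for the E-box because MYC and MAX bind it, and the matches are shown with the matching bases in capitals and all other bases in lower case. The windows came from RefSeq promoters of GRCm38.p6, which run from 250 bases before to 50 bases after a start site, and 12 of them belonged to the 10 members. CACGTG was found in 1 of the 12, compared with 7.15% of all 32851 promoters, and CACGCG on either strand (CGCGTG when read on the other strand) in 3 of the 12, compared with 9.27% of all promoters. The E-box of Kat5 lies 186 bases before its start site within the bases gtCACGTGac, which other E-box factors of the helix-loop-helix family also bind. The Ep400 promoter held 2 matches, 212 and 176 bases before the start site, and those of Wdr5 and Ruvbl1 lie after the start site, at bases 12 and 43 of the transcript. In the GENCODE annotation the Wdr5 and Ruvbl1 matches are in the 5′ UTR of the first exon, whereas those of Kat5 and Ep400 lie upstream of the annotated transcripts. The RefSeq span of Kat5 starts further upstream and includes its match, and that of Ep400 includes the match nearer to the start site.
Kat5, chr19:5610235-5610320, minus strand: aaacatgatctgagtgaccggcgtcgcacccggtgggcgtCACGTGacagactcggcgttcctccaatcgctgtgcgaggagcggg
Ep400, chr5:110770848-110770967, minus strand: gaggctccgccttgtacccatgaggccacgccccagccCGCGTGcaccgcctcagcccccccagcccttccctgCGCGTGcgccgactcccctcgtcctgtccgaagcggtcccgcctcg
Wdr5, chr2:27515146-27515175, plus strand: ccgcccctcgcgCACGCGcaatccctcccg
Ruvbl1, chr6:88465439-88465458, plus strand: cctagtaacggcCGCGTGgt
The other 6 members had no match to these letters in the windows searched. Among the genes with a match, Kat5, Wdr5 and Ruvbl1 had lower mean levels in MYC-inhibited embryos and Ep400 a higher one, and none of these differences passed the test given below.

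The libraries held 18206584 to 20718690 expected counts, the estimated number of fragments per gene that the authors deposited without normalisation. The DMSO replicates stood further apart than the MYC-inhibited replicates, with over 2-fold differences in 43.4% and 21.9% of the 13549 genes tested, respectively. Of 16 genes whose transcripts are stored in the oocyte, 14 had a higher fitted level in MYC-inhibited embryos, and their summed FPKM (fragments scaled to transcript length and library size) was 1502 and 5063 in the DMSO replicates and 10415 and 7481 in the MYC-inhibited replicates. At an unadjusted p under 0.05, 3 of the 16 were higher (4.72% of all genes) and 1, Zp3, was lower (10.1% of all genes). Most of each sum came from Btg4 (551, 2738, 5737 and 3580 FPKM in the same order of libraries) and Oosp1 (555, 1572, 3691 and 2917 FPKM). Summed FPKM of 11 two-cell embryo markers was 2321, 4207, 5024 and 5399 in the same order. Of these 11, 8 had a higher fitted level in MYC-inhibited embryos, and the median log2FC was 0.74. At an unadjusted p under 0.05, 1 of the 11, Zscan4f (log2FC 1.83), was higher (4.72% of all genes) and 3 were lower (10.1% of all genes). The 3 lower ones were Dppa2 (log2FC -2.63), Pramel6 (-1.68) and Pramel7 (-1.47). Dppa2 was 942 and 224 FPKM with DMSO and 106 and 114 with the inhibitor. Of 12 cumulus and granulosa cell markers, 4 were listed at 0 in every library (Amh, Foxl2, Ptx3 and Inha) and the sum was 7.54 to 22.2 FPKM, with Amhr2 as the largest single value in each library and the highest sum in DMSO replicate 1. Of 8 blood and oviduct markers, 3 were at 0 in every library (Hbb-b1, Hbb-bs and Pax8) and nearly all of the sum of 176 to 325 FPKM came from Hba-a2. The part of stored RNA, of other cells and of DMSO replicate 1 in the values below was not tested, and in pooled embryos less RNA per embryo cannot be told apart from fewer embryos with the RNA. The methods of the study call the 2 libraries of a group biological replicates, without saying whether they came from separate fertilisations.

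All 10 cofactor genes were detected in all 4 libraries, and their levels per transcript length (FPKM) spanned a wide range. Ruvbl1, a AAA+ ATPase shared by the TIP60, INO80 and SRCAP remodelling complexes, had the highest level, between 140 and 253 FPKM. Actl6a (33.4 to 69.2 FPKM), an actin-related protein of the BAF, TIP60 and INO80 complexes, Wdr5 (34.99 to 59.0 FPKM) and Ruvbl2 (19.6 to 44.7 FPKM), the ATPase partner of RUVBL1, came next. Their ranges over the libraries overlapped, but Ruvbl2 was below both Wdr5 and Actl6a within each of the 4 libraries, whereas Wdr5 and Actl6a had no fixed order. Ep400, Kat2a, Hcfc1, Zbtb17 and Kat5 were between 1.82 and 7.78 FPKM, and each overlapped its neighbour in the order of mean levels. Trrap was the lowest, at 0.71 to 1.60 FPKM, below every value of Kat5. Thus 4 members exceeded 19 FPKM in every library and 6 stayed under 8 FPKM in every library, and the gaps between Trrap and Kat5, Ep400 and Ruvbl2, and Actl6a and Ruvbl1 were the only ones without overlap between neighbours.

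**Figure D1:**
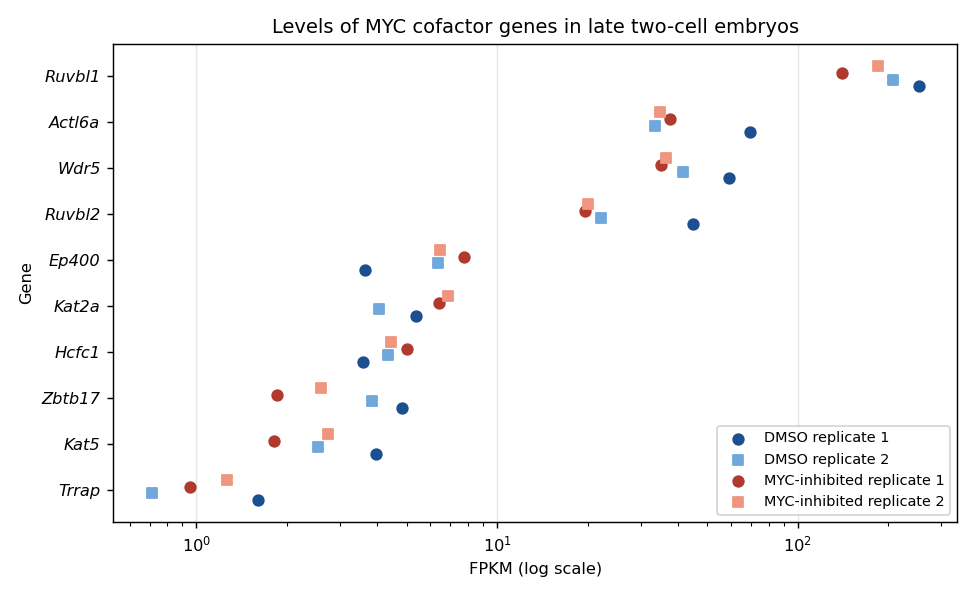
FPKM (log axis) of each cofactor gene in the 4 libraries, with 1 point per library and genes ordered by mean level. Ruvbl1 sits at 140 to 253 FPKM and Trrap at 0.71 to 1.60 FPKM, and DMSO replicate 1 has the highest point for most genes.

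None of the 10 members passed the test between MYC-inhibited and DMSO embryos. With edgeR's quasi-likelihood test, 0% of the 13549 genes tested had an adjusted p under 0.05 and a log2 fold change (log2FC) over 1 in size, and 14.9% (2013 genes) had an unadjusted p under 0.05, of which the members held 0. DESeq2 with transcript lengths called 512 genes (2.81% of 18208) and again none of the members, with Kat5 left without an adjusted p. Of the members, 7 had a lower and 3 a higher fitted level in MYC-inhibited embryos, and their median log2FC was -0.66, compared with 0.04 over all genes tested. In CPM (counts scaled to library size and to TMM factors, which correct for library composition), the groups did not overlap for 4 members that were lower (28.3% of all genes) and for 2 that were higher (28.9% of all genes). DMSO replicate 1 held the highest of the 4 CPM values for 7 members and the lowest for 2, and for 7 members the DMSO replicates differed by more than the means of the groups did. The shares of all genes are not given for these counts, so they are not read as a trait of the members. Without DMSO replicate 1 the median was -0.02, with 5 members lower and 5 higher and 0 at an unadjusted p under 0.05 (13.8% of all genes). Without DMSO replicate 2, 6 members had an unadjusted p under 0.05 (42% of all genes), and Ruvbl1, Ruvbl2, Wdr5 and Actl6a then had an adjusted p under 0.05 (32.5% of all genes), of which Ruvbl2 and Actl6a also exceeded a log2FC of 1 in size (28.7% of all genes). Without MYC-inhibited replicate 1 the median was -0.41. The call on these genes thus rested on which DMSO library was kept, and the lone DMSO library is assumed in such a fit to vary like the MYC-inhibited libraries.

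**Figure D2:**
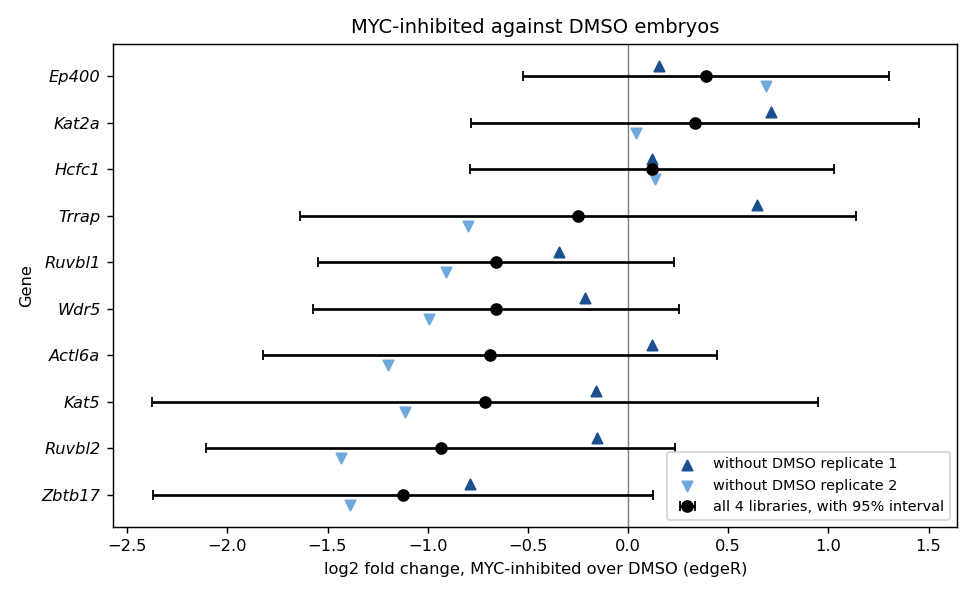
Log2FC of each cofactor gene in MYC-inhibited against DMSO embryos from edgeR, with the 95% interval over 4 libraries (black), and the value without DMSO replicate 1 (upward triangles) or without DMSO replicate 2 (downward triangles). Every interval includes 0, and the median of the genes is -0.66 with all libraries and -0.02 without DMSO replicate 1.

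Trrap and Ep400 encode the large scaffold and the large ATPase of the TIP60 complex. TRRAP (chr5:144767737-144859778, plus strand) belongs to the PI3K-related kinase family but has no kinase activity, and Trrap CPM was 22.3 and 8.31 in the DMSO replicates and 11.1 and 14.6 in the MYC-inhibited replicates. Both MYC-inhibited values lay between the DMSO values, which were 2.69-fold apart. The log2FC of Trrap was -0.25 (SE 0.59, 95% interval -1.64 to 1.14, adjusted p = 0.856) and turned to 0.65 without DMSO replicate 1, with -0.80 without DMSO replicate 2. EP400 (gene at chr5:110664373-110770927, minus strand) drives exchange of the histone variant H2A.Z, and Ep400 CPM was 44.1 and 64.7 with DMSO and 78.7 and 63.8 with the inhibitor. DMSO replicate 1 was the lowest and the remaining DMSO value lay between the MYC-inhibited values. The log2FC of Ep400 was 0.39 (SE 0.39, 95% interval -0.52 to 1.304, adjusted p = 0.633), with 0.15 without DMSO replicate 1 and 0.69 without DMSO replicate 2.

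The acetyltransferases Kat5 and Kat2a stood in opposite directions, with neither past the test. Kat5 (chr19:5603014-5611556, minus strand) encodes TIP60, which acetylates histones H4 and H2A, and its CPM was 7.49 and 3.92 with DMSO and 2.69 and 4.25 with the inhibitor. The groups overlapped, DMSO replicate 1 was the highest, and the gene rested on only 58 to 125 expected counts per library. The log2FC of Kat5 was -0.72 (SE 0.71, 95% interval -2.38 to 0.95, adjusted p = 0.630), with -0.16 without DMSO replicate 1, -1.11 without DMSO replicate 2 and -0.38 without MYC-inhibited replicate 1. Exons of Kat5 share 12.1% of their bases with Rnaseh2c on the opposite strand, whose FPKM was 23.3 and 7.63 with DMSO and 4.01 and 8.08 with the inhibitor, so Kat5 is uncertain because the strand used in counting is not given in the sources used here. The same limit holds for the exon overlaps of Ruvbl2, Actl6a and Zbtb17 given below. Kat2a (chr11:100704746-100712485, minus strand) encodes GCN5, the histone H3 acetyltransferase of SAGA and ATAC, and its CPM was 17.07 and 10.8 with DMSO and 17.11 and 17.98 with the inhibitor. Both MYC-inhibited values were above both DMSO values, by a margin of 17.11 over 17.07. The log2FC of Kat2a was 0.33 (SE 0.48, 95% interval -0.79 to 1.45, adjusted p = 0.754), with 0.71 without DMSO replicate 1 and 0.04 without DMSO replicate 2.

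Ruvbl1, Ruvbl2 and Actl6a encode subunits that several remodelling complexes share, and DMSO replicate 1 was the highest library for each of them. Ruvbl1 (chr6:88465409-88497566, plus strand) had a CPM of 399 and 273 with DMSO and 186 and 240 with the inhibitor. The groups did not overlap, and the log2FC was -0.66 (SE 0.38, 95% interval -1.55 to 0.23, adjusted p = 0.419), with -0.35 without DMSO replicate 1. Without DMSO replicate 2 it was -0.91 with an adjusted p of 0.0154.
The CPM of Ruvbl2 (chr7:45421896-45436171, minus strand) was 71.4 and 29.8 with DMSO and 26.4 and 26.5 with the inhibitor. The MYC-inhibited values were below both DMSO values but close to DMSO replicate 2, and the DMSO values were 2.40-fold apart. The log2FC of Ruvbl2 was -0.93 (SE 0.50, 95% interval -2.11 to 0.24, adjusted p = 0.395), moving to -0.16 without DMSO replicate 1 and -1.43 (adjusted p = 0.00448) without DMSO replicate 2. Its exons share 10.7% of their bases with Gys1 and 4.76% with Lhb on the opposite strand.
Actl6a (chr3:32708546-32726973, plus strand) had a CPM of 134 and 54.4 with DMSO and 61.3 and 55.6 with the inhibitor. Only DMSO replicate 1 stood apart, 2.47-fold above DMSO replicate 2, which was the lowest of the 4 libraries. The log2FC of Actl6a was -0.69 (SE 0.48, 95% interval -1.82 to 0.44, adjusted p = 0.493), moving to 0.12 without DMSO replicate 1 and -1.20 (adjusted p = 0.00523) without DMSO replicate 2. Its exons share 11.6% of their bases with Mrpl47 on the opposite strand, whose FPKM was 68.0 and 37.5 with DMSO and 23.3 and 26.1 with the inhibitor.

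Wdr5 and Hcfc1, whose proteins bind different MYC boxes and meet in the MLL and SET1 methyltransferases, stood in opposite directions, with neither past the test. Wdr5 (chr2:27515147-27536535, plus strand), a WD40 protein, had a CPM of 177 and 105 with DMSO and 88.4 and 90.3 with the inhibitor. The groups did not overlap, and the log2FC was -0.66 (SE 0.39, 95% interval -1.57 to 0.25, adjusted p = 0.426), with -0.22 without DMSO replicate 1 and -0.99 (adjusted p = 0.00915) without DMSO replicate 2. Hcfc1 (chrX:73942792-73966995, minus strand) encodes a host cell factor that links transcription factors to chromatin enzymes, and its CPM was 32.34 and 32.99 with DMSO and 37.99 and 33.06 with the inhibitor. Relative to their level these were the closest CPM values among the members, and the groups were separated only by 33.06 over 32.99. The log2FC of Hcfc1 was 0.12 (SE 0.39, 95% interval -0.79 to 1.03, adjusted p = 0.896), and leaving out MYC-inhibited replicate 1 or 2 gave 0.06 or 0.22. Hcfc1 is X-linked, and pools of 10 embryos can differ in their share of males. Xist, which is transcribed from the inactive X, was 0.39 and 0.02 FPKM with DMSO and 0.09 and 0.06 with the inhibitor, and of the Y-linked genes Ddx3y was 2.17, 0.35, 0.18 and 0.19, Eif2s3y 44.5, 37.6, 21.5 and 36.4, Kdm5d 0.50, 0.93, 0.51 and 0.96, and Uty 6.80, 5.77, 6.54 and 7.77 FPKM in the same order. These genes had no common order of the libraries.

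With all 4 libraries Zbtb17 had the largest difference in size among the members, and Ruvbl2 passed it without DMSO replicate 2 (-1.43 against -1.39) and without MYC-inhibited replicate 1 (-0.89 against -0.87). Zbtb17 (chr4:141444673-141467937, plus strand) had a CPM of 17.4 and 11.6 with DMSO and 5.61 and 7.68 with the inhibitor. Both MYC-inhibited values were below both DMSO values, from 121 and 161 against 290 and 219 expected counts. The log2FC of Zbtb17 was -1.12 (SE 0.54, 95% interval -2.37 to 0.12, adjusted p = 0.357). It was -0.79 without DMSO replicate 1 and -1.39 (adjusted p = 0.0563) without DMSO replicate 2, and DESeq2 with transcript lengths gave an adjusted p of 0.227. Exons of Zbtb17 share 1.06% of their bases with Spen on the opposite strand.

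Ratios between members within a library do not depend on how libraries are scaled, so 5 pairs of partners were compared. With 2 libraries against 2, the exact two-sided permutation test cannot give a p under 0.333, so no ratio could pass the threshold. Kat5 relative to Kat2a in FPKM was 0.736 and 0.625 with DMSO and 0.283 and 0.400 with the inhibitor. The ratio was lower in both MYC-inhibited libraries, by 1.01 on the log2 scale (exact permutation p = 0.333, adjusted over the 5 pairs 0.833). Of the expected counts of both genes, Kat5 held 30.5% (exact binomial 95% interval 26.1 to 35.2) and 26.6% (21.5 to 32.2) with DMSO and 13.6% (10.5 to 17.2) and 19.1% (15.6 to 23.0) with the inhibitor. The intervals of DMSO replicate 2 and MYC-inhibited replicate 2 met, and as read copies were not removed by molecular tags the intervals cover counting error only. Wdr5 relative to Hcfc1 was 16.4 and 9.54 with DMSO and 6.96 and 8.19 with the inhibitor, again without overlap (log2 difference -0.73, exact permutation p = 0.333, adjusted 0.833). Dropping DMSO replicate 1 gave a difference of -0.34, and dropping DMSO replicate 2 one of -1.12.
The remaining ratios overlapped between the groups. Ruvbl1 exceeded Ruvbl2 by 5.66-fold and 9.30-fold with DMSO and by 7.14-fold and 9.16-fold with the inhibitor, although the proteins work as a joint ring. Ep400 exceeded Trrap by 2.28-fold in DMSO replicate 1 and by 8.99-fold in DMSO replicate 2, around the 8.19-fold and 5.09-fold of the MYC-inhibited libraries. Kat5 relative to Ep400 was 1.08 and 0.397 with DMSO and 0.234 and 0.425 with the inhibitor, so that only DMSO replicate 1 stood apart.

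**Figure D3:**
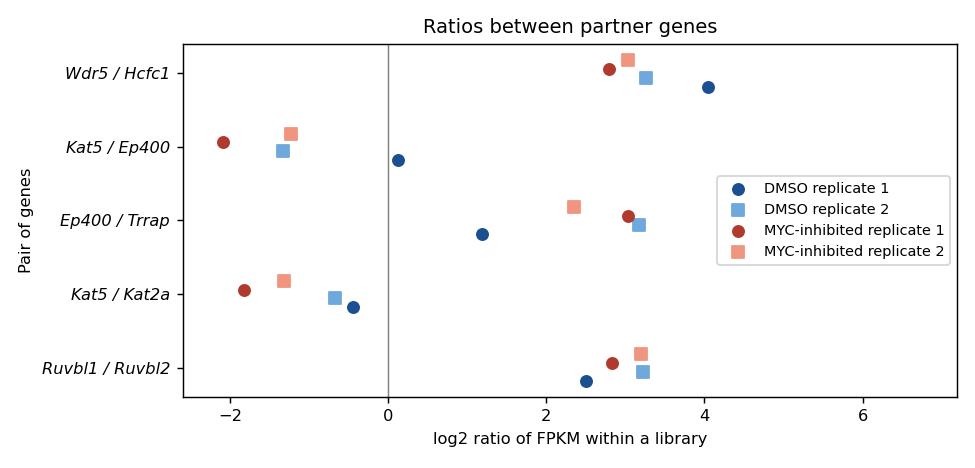
Log2 ratio of FPKM between 2 cofactor genes within each library, with 1 point per library. Kat5 over Kat2a and Wdr5 over Hcfc1 are lower in both MYC-inhibited libraries than in both DMSO libraries, and the other 3 pairs overlap.

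The complexes in which the cofactors work were followed through 7 lists of partner genes, of which 105 of 106 genes passed the filter on low counts. Of these, 72 had a lower and 33 a higher fitted level in MYC-inhibited embryos and their median log2FC was -0.49. At an unadjusted p under 0.05, 18 were lower (17.1%, compared with 10.1% of all genes) and 0 higher (compared with 4.72% of all genes), and none passed the adjusted test of edgeR. The smallest adjusted p of any gene in the edgeR fit was 0.333, the value printed for several partners below. DESeq2 with transcript lengths called 6 of the 105 partners, Actr6, Ino80, Pdrg1, Paf1, Supt5 and Ccdc101, all lower. In that fit 429 of 18208 genes (2.36%) were called lower, but the 18208 include genes under the count filter that the 105 partners passed. DESeq2 on the 13549 filtered genes called 471 lower, so the 2.36% is not a like share for the partners. Without DMSO replicate 1 the median was -0.20, and 14 partners were lower (7.36% of all genes) and 1, Taf10, was higher (6.44% of all genes) at an unadjusted p under 0.05. For the named partners the value without this library is given after the first one.

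**Figure D4:**
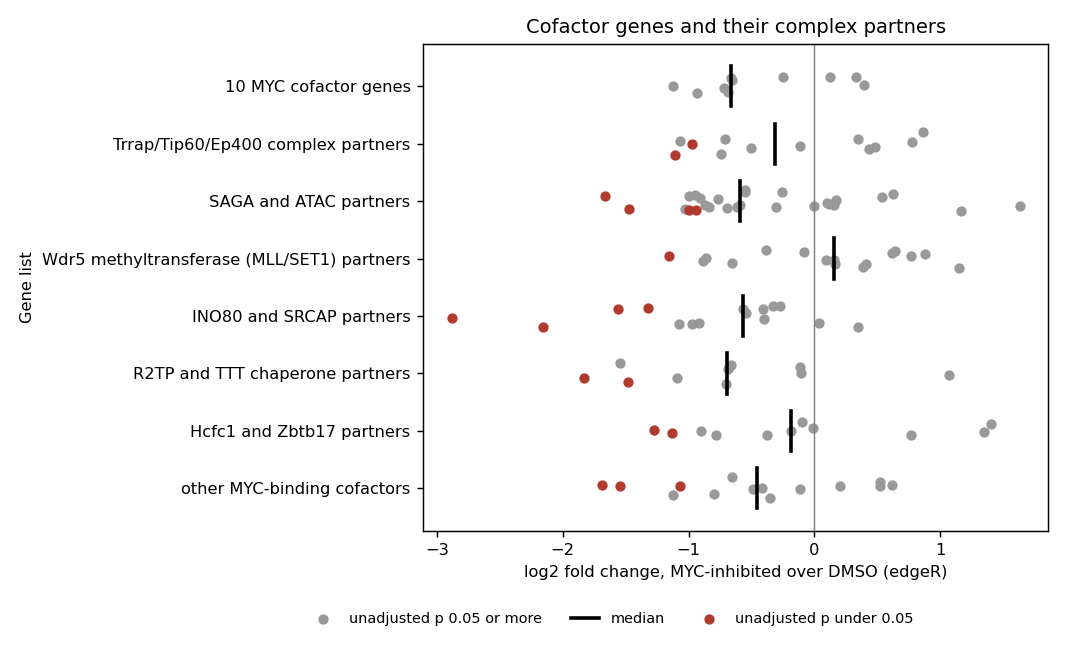
Log2FC from edgeR for each cofactor gene and each tested partner gene, with 1 point per gene, the median of each list as a bar and genes with an unadjusted p under 0.05 in red. The partners of MLL and SET1 have a median of 0.16 and each of the other 6 partner lists has a median below 0.

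The INO80 and SRCAP partners of RUVBL1 and RUVBL2, which move or exchange nucleosomes, had 13 of 15 genes lower and a median log2FC of -0.57, or -0.36 without DMSO replicate 1. Actr6, the actin-related subunit of SRCAP, was 236 and 115 FPKM with DMSO and 41.9 and 47.5 with the inhibitor, a log2FC of -2.16, or -1.36 without DMSO replicate 1 (edgeR adjusted p = 0.333, DESeq2 adjusted p = 0.0031). It was also the most abundant of this list, and its groups were apart whichever DMSO library was taken. Ino80, the ATPase of its complex, was 9.14 and 5.93 FPKM with DMSO and 2.50 and 3.25 with the inhibitor (log2FC -1.56, or -1.05 without DMSO replicate 1, edgeR adjusted p = 0.333).
Of the R2TP and TTT chaperone partners, which assemble PI3K-related proteins such as TRRAP together with RUVBL1 and RUVBL2, 9 of 10 were lower and the median log2FC was -0.69, which moved to -0.33 without DMSO replicate 1 and to -1.06 without DMSO replicate 2. The prefoldin-like subunits Pdrg1 (log2FC -1.83, or -1.10 without DMSO replicate 1) and Uxt (-1.48, or -0.80) had the smallest p-values, and Pfdn2, the most abundant, had -0.70 (or -0.25). Pdrg1 was 356 and 186 FPKM with DMSO and 62.8 and 111 with the inhibitor.

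Among SAGA and ATAC partners of GCN5, 19 of 27 were lower, with a median log2FC of -0.59, or -0.23 without DMSO replicate 1. Ccdc101, which encodes the SGF29 reader of methylated H3K4, was 57.5 and 30.3 FPKM with DMSO and 14.8 and 16.6 with the inhibitor (log2FC -1.67, or -0.95 without DMSO replicate 1, edgeR adjusted p = 0.333, DESeq2 adjusted p = 0.0445). The deubiquitinase gene Usp22 had a log2FC of -1.47, or -0.76 without that library. Taf9, shared by SAGA and TFIID, was the most abundant, at 4682 and 3711 FPKM with DMSO and 2398 and 2717 with the inhibitor (log2FC -0.87, or -0.53).
The Trrap, Tip60 and Ep400 complex partners were more evenly divided, with 7 of 12 lower and a median of -0.31. The direction of this median was not stable, as it was 0.02 with limma on log2(FPKM + 1) and 0.03 with limma on log2(FPKM + 0.1). Without DMSO replicate 2 it stayed below 0, at -0.07. Vps72 (log2FC -1.10, or -0.59 without DMSO replicate 1), which carries H2A.Z, and the bromodomain gene Brd8 (-0.98, or -0.66) had the smallest p-values, and Morf4l2, a homologue of the chromodomain subunit Morf4l1 and the most abundant of the list, had 0.48 (or 0.13).
The Wdr5 methyltransferase partners had 6 of 16 lower and a median of 0.16, which was 0.46 without DMSO replicate 2, 0.33 without MYC-inhibited replicate 1 and 0.05 without MYC-inhibited replicate 2. Rbbp5, which forms the core of these enzymes with WDR5, had a log2FC of -1.15 (-0.87 without DMSO replicate 1), whereas Pagr1a had 1.14 (or 0.67) and was 9.59 and 26.8 FPKM with DMSO and 39.1 and 46.3 with the inhibitor. Dpy30, another core subunit and the most abundant, had -0.39 with overlapping groups, and turned to 0.41 without DMSO replicate 1.

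Partners of HCFC1 and ZBTB17 had 8 of 11 lower and a median of -0.19. Npm1, a nucleolar protein that binds ZBTB17, was 3160 and 1686 FPKM with DMSO and 1068 and 1230 with the inhibitor (log2FC -1.28, or -0.56 without DMSO replicate 1, edgeR adjusted p = 0.333). Thap11, which recruits HCFC1 to promoters, had a log2FC of -1.13, or -0.40 without DMSO replicate 1. Of 14 other cofactors that bind MYC, 10 were lower and the median was -0.45, or -0.22 without DMSO replicate 1. The elongation factors Paf1 (log2FC -1.55, or -0.90 without DMSO replicate 1, DESeq2 adjusted p = 0.0356) and Supt5 (-1.69, or -0.87, DESeq2 adjusted p = 0.0375) had the smallest p-values, and Ccnt1, the cyclin of P-TEFb and the most abundant of the list, had -1.07 (or -0.59).

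MYC and its partner were measured beside the cofactors. Myc was 7.59 and 7.81 FPKM with DMSO and 2.73 and 2.74 with the inhibitor (log2FC -1.64), and Max was 16.2 and 34.9 FPKM with DMSO and 68.8 and 46.4 with the inhibitor (log2FC 1.07). The groups did not overlap for either gene, and neither passed the adjusted test of edgeR. The inhibitor acts on the protein, so the level of Myc RNA does not measure inhibition.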

How the data were processed

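The expected counts of fragments per gene, the TPM and the FPKM were deposited by the authors for each library. Per the labels and the methods of the study, polyadenylated RNA was amplified with a SMART-Seq kit and read pairs were mapped to mm10 with STAR 2.7.10 and quantified with RSEM 1.3.3, and the study used DESeq2 for differential expression. TPM served as an alternative scale for ratios, and the deposited effective lengths entered 1 alternative fit.

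Expected counts were rounded and genes kept with filterByExpr (at least 10 counts, and 15 in total), leaving 13549 of 24411 genes. MYC-inhibited and DMSO libraries (2 each, TMM factors from 0.873 to 1.06) were compared with edgeR 4.0.16 (quasi-likelihood test, robust, Benjamini-Hochberg adjustment, R 4.3.3), with thresholds of |log2FC| over 1 and an adjusted p under 0.05. Variation between replicates was large (common coefficient 0.557). DESeq2 1.42.0 and limma 3.58.1 on log2(FPKM + pseudocount 1 or 0.1) were alternatives. The members and lists were chosen with earlier results of these data known. Named genes were the members, per partner list the 2 with the smallest p and the 1 with the highest mean FPKM, Myc and Max, and the sex-linked genes. The overlapping genes, the markers, Taf10 and the partners called by DESeq2 were named after their values were seen. Exon overlaps came from GENCODE M21 and gene positions from RefSeq, both of GRCm38 (mm10).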

Additional observations from a re-analysis of the deposited data

How the results depend on the processing

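Of 130 log2FC values of the members over 13 alternatives, 125 kept their direction and side of the threshold, 3 changed sign and 2 passed it (Ruvbl2 and Actl6a without DMSO replicate 2). Trrap was 0.032 with limma on log2(FPKM + 0.1). Leaving out each library in turn gave -0.80 to 0.65 for Trrap, -1.20 to 0.12 for Actl6a, -0.95 to -0.019 for the median of the members, and 0 to 6 members at an unadjusted p under 0.05. The same omission gave log2 differences of -0.20 to 0.51 for Ruvbl1 over Ruvbl2, which was also -0.02 without MYC-inhibited replicate 2, and of -0.48 to 1.502 for Ep400 over Trrap. Of 91 medians of partner lists, 83 moved by less than a spread set for each list, which ran from 0.065 to 0.477. It was widest for the R2TP and TTT partners, so their move from -0.69 to -0.33 without DMSO replicate 1 stayed within it. The count therefore does not show that the medians were stable. Beside the values in the report, library totals gave -0.19 for the Trrap, Tip60 and Ep400 partners and -0.05 for the Hcfc1 and Zbtb17 partners, which had -0.26 with at least 10 counts in every library. Omitting a library gave -1.78 to -0.33 for Kat5 over Ep400.

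The count of genes called, 0 in the comparison as reported, was 566 with DESeq2 on the same genes, 512 with DESeq2 and transcript lengths, and 644 with edgeR without a filter on low counts. With the replicate number as a block (replicate block), 44 genes were called. Over the genes tested, the deviations of same-numbered libraries from their group means had a correlation of -0.09. With 2 libraries a group this value cannot tell whether same-numbered libraries belong together, and the numbers were not taken as a pairing. Omitting a library gave 2 to 4213 called genes, the latter without DMSO replicate 2. Genes at an unadjusted p under 0.05 then numbered 461 (without MYC-inhibited replicate 1), 861 (without MYC-inhibited replicate 2) and 6166 (without DMSO replicate 2). In FPKM, an alternative chosen after seeing the data, the groups did not overlap for 4 lower and 3 higher members. The shares of all genes in FPKM are not given here, and in CPM they were 28.3% lower and 28.9% higher. Scaling by library totals moved the median of all genes from 0.04 to 0.17 and that of the members to -0.49, and limma on log2(FPKM + 1) moved them to 0.12 and -0.38, with 940 of 1825 genes at an unadjusted p under 0.05 lower, compared with 1374 of 2013. The causes were not tested. With 2 libraries a group, the intervals of all members include no difference.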

Other observations

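Paralogs of the cofactors were chosen after their values were seen, and none exceeded 8.23 FPKM in any library. Kat2b, which encodes the acetyltransferase PCAF related to GCN5, was 8.23 and 4.43 FPKM with DMSO and 2.96 and 4.26 with the inhibitor (log2FC -0.99, edgeR adjusted p = 0.396). It was above Kat2a in both DMSO libraries (5.38 and 4.05 FPKM) and below it in both MYC-inhibited libraries (6.43 and 6.88 FPKM). Wdr5b, a close relative of Wdr5, was 3.09 and 4.09 FPKM with DMSO and 2.97 and 3.99 with the inhibitor, far below Wdr5 in every library. Hcfc2 ranged from 0.20 to 3.31 FPKM without an order of the groups. Actl6b, the neuronal relative of Actl6a, had 4 counts in DMSO replicate 2 and 0 in the other libraries.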
